A study of Mus musculus with 4 samples.

Results

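The mouse genes for inhibitors of cyclin-dependent kinases (CDKs) were chosen by symbol as the CIP/KIP genes Cdkn1a, Cdkn1b and Cdkn1c and the INK4 genes Cdkn2a, Cdkn2b, Cdkn2c and Cdkn2d. All 7 were rows of the fragment count table, out of 24984 genes. The table came from TTchem-seq, in which cells take up 4-thiouridine for a short time and the RNA that carries it is fragmented, enriched and sequenced, so that fragments over a gene report its transcriptional output. The cells were labelled as DP (double positive) thymocytes, immature T cells of the thymus that carry both CD4 and CD8. The wild-type (WT) group had the genotype Tox4;F/F, meaning that both Tox4 alleles carried loxP sites and no Cre was named, and the conditional knockout (cKO) group had the genotype Tox4;F/F;Lck+. Tox4 encodes a chromatin protein with an HMG box. Cre was driven by the proximal Lck promoter, active in early T lineage cells, per the study's methods. It removed exons 4 to 6 of Tox4, and the mice were littermates 6 to 8 weeks old. No group carried Cre without floxed Tox4, so an effect of Cre itself and one of Tox4 loss cannot be told apart. Cells of both genotypes were cultured for 0.5 h before the label was added, and each genotype had 2 libraries.

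A CDK is active only with its cyclin, and in late G1 the D cyclins with CDK4 or CDK6 and the E cyclins with CDK2 phosphorylate RB, which frees E2F factors to drive genes of DNA replication. INK4 proteins bind CDK4 and CDK6 and keep the D cyclins off, whereas CIP/KIP proteins bind cyclin-CDK complexes and chiefly block CDK2. In the thymus, cells divide rapidly as they enter the DP stage and most then rest, and the products of Cdkn1b and Cdkn2c are known to restrain thymocyte division.

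The libraries held 42626473 and 48690591 fragments in WT and 38429786 and 39760312 in cKO, and the 7 genes took between 0.0208% and 0.0233% of them. Tox4, spanning chr14:52279146-52295509 in GRCm38, had 74.0 and 70.3 CPM (fragment counts scaled to the library total) in WT and 59.3 and 57.2 in cKO. Tox4 was lower in each cKO library than in either WT library, with a log2 fold change of -0.31 (SE 0.10, adjusted p = 0.0453 in DESeq2 and 0.153 in edgeR), and without any 1 of the 4 libraries the call was lost (log2 fold changes from -0.34 to -0.28). The whole gene was counted, not the deleted exons alone, so these counts check the direction of the labels and not how complete the deletion was. All 10 DP marker genes were measured, and their summed level was 5047 and 5604 CPM in WT and 5390 and 5034 CPM in cKO. Of the 10, 2 were called lower in cKO by DESeq2 and none by edgeR. Over all 11625 genes with a mean of at least 1 CPM, DESeq2 called 1.57% lower and edgeR 0.499% in either direction. Cd8a had 498 and 629 CPM in WT and 395 and 383 CPM in cKO (log2 fold change -0.54, SE 0.10, adjusted p = 1.2e-05 in DESeq2 and 0.108 in edgeR). Rag1 had 918 and 1169 CPM in WT and 882 and 802 CPM in cKO (log2 fold change -0.31, SE 0.10, adjusted p = 0.04995 in DESeq2 and 0.291 in edgeR), and its call was lost without WT replicate 2, cKO replicate 1 or cKO replicate 2. The Rag1 call was also lost in DESeq2 with TMM factors (0.0580), total count factors (0.0522), a minimum of 1 CPM in every library (0.0582) or filtering off (0.0902). Genes of other cells were low, with 8 erythroid genes summing to at most 0.855 CPM, 8 B cell genes to 18.3 to 25.9 CPM and 8 myeloid genes to 11.1 to 13.7 CPM. The 8 thymic epithelial genes summed to 12.0 and 17.4 CPM in WT and 9.003 and 6.41 CPM in cKO. Most of that was Cldn4, called lower by DESeq2, at 11.0 and 16.2 CPM in WT and 8.17 and 5.58 CPM in cKO. Foxn1, Krt5, Krt8 and Prss16 had at most 3 fragments in a library, Aire at most 10 and Epcam 25 to 54. Psmb11 was at 0 throughout. The sum thus largely followed Cldn4 and does not measure epithelial cells. The part of these markers in the values of the inhibitor genes was not tested.

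The sequences at the starts of the genes are given first. The windows of 250 bases just upstream of RefSeq transcript starts (GRCm38.p6) were found for 6 of the 7 genes, and 4 windows are shown: that of the p53 target Cdkn1a, those of the 2 genes with the highest output, and that of Cdkn2b, which was all but silent. Each reads 5′ to 3′ on the gene's own strand and ends at the base before the start. Capitals mark GGGCGG, the core of an SP1 site, CCAAT, the core of an NF-Y site, and the p53 response element, searched on both strands, so that CCGCCC and ATTGG are the same motifs on the other strand.
Cdkn1a, chr17:29090729-29090978, plus strand: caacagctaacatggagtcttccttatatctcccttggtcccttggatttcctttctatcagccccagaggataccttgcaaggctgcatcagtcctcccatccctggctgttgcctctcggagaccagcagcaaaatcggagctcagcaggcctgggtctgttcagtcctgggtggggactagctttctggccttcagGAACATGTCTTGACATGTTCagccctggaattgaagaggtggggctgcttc
Cdkn1b, chr6:134920151-134920400, plus strand: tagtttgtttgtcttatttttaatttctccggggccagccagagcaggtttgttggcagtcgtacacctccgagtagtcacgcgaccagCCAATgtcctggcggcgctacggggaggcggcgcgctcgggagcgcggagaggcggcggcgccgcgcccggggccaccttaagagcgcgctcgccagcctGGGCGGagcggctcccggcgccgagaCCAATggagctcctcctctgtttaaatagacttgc
Cdkn2d, chr9:21291210-21291459, minus strand: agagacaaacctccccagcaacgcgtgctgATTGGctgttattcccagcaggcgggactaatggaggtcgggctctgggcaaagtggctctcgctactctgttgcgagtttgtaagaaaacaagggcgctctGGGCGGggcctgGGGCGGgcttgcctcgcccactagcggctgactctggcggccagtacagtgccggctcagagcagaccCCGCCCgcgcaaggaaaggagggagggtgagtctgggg
Cdkn2b, chr4:89311033-89311282, minus strand: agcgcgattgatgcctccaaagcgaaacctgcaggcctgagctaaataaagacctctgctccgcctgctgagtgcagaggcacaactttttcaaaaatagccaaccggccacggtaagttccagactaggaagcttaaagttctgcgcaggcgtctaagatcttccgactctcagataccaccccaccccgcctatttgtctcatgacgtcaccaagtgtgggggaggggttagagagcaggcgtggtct
The Cdkn1a window held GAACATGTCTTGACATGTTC at chr17:29090928-29090947, which has 1 mismatch to the p53 response element and ends 32 bases before the start at position 29090979. An element with at most 1 mismatch was in 25 of 32851 windows of all genes (0.0761%), and in no other window of these 6 genes. That limit was set after the window had been seen. A second RefSeq start of Cdkn1a, at position 29093769, had 2 GGGCGG motifs instead, 99 and 41 bases before it. Which of these starts was used in these cells was not measured. The Cdkn1b window had 1 GGGCGG and 2 CCAAT motifs, the nearer CCAAT 31 bases before the start, and the Cdkn2d window had 3 GGGCGG and 1 CCAAT. In the window of the upstream Cdkn2c start there were 3 GGGCGG, in that of the upstream Cdkn2a start 2, and in that of Cdkn2b neither motif. GGGCGG was in 32.7% and CCAAT in 33.8% of all windows. TATAAA, the core of a TATA box, was in 12.4% of all windows and in none of the 9 windows of these genes. A match of letters does not show that a factor was bound in these cells.

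The 7 genes spanned a wide range of output, and Cdkn1b and Cdkn2d made up most of it. To compare genes, CPM were divided by the deposited length of the gene in kb, which for all 7 was the span of its transcripts, introns included. The study's methods build the count matrix from STAR output, whose gene counts take exons. Whether the deposited table is that matrix is not stated, so the levels per kb rest on the deposited length. Exons are from 5.64% (Cdkn2a) to 71.6% (Cdkn1c) of it. Cdkn1b, which encodes p27, had the highest output at 32.9 and 34.8 CPM per kb in WT and 32.5 and 32.1 CPM per kb in cKO, above 98.7% of the 11625 genes with a mean of at least 1 CPM. Cdkn2d, which encodes p19INK4d, followed at 10.1 and 12.7 CPM per kb in WT and 11.2 and 12.35 CPM per kb in cKO, above 95.3% of those genes. Cdkn2c, which encodes p18INK4c, had 1.61 and 2.60 CPM per kb in WT and 2.91 and 2.17 CPM per kb in cKO. The ranges of these 3 genes over the 4 libraries did not touch, with Cdkn1b 2.85 times Cdkn2d and Cdkn2d 4.99 times Cdkn2c by their means.

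Below them lay Cdkn1a, which encodes p21, at 0.169 and 0.346 CPM per kb in WT and 0.334 and 0.516 CPM per kb in cKO, a level higher than that of only 19.8% of the measured genes. Cdkn2c stood 6.81 times above it. Cdkn1c, the imprinted gene of p57, had 0.182 and 0.174 CPM per kb in WT and 0.317 and 0.148 CPM per kb in cKO. The ranges of Cdkn1a and Cdkn1c overlapped, and Cdkn1a was the higher in 3 of 4 libraries, so their order did not exceed the spread between libraries. Divided by exonic length instead, a choice made after the values were seen, the first 5 genes kept this order, at means of 70.5 (Cdkn1b), 25.1 (Cdkn2d), 6.06 (Cdkn2c), 1.63 (Cdkn1a) and 0.287 (Cdkn1c) CPM per exonic kb, and Cdkn1a (0.807 to 2.47) then lay apart from Cdkn1c (0.207 to 0.442). Cdkn2a, which encodes p16INK4a and ARF from separate first exons, and Cdkn2b, which encodes p15INK4b, were at or near 0 and could not be ordered either.

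**Figure D1:**
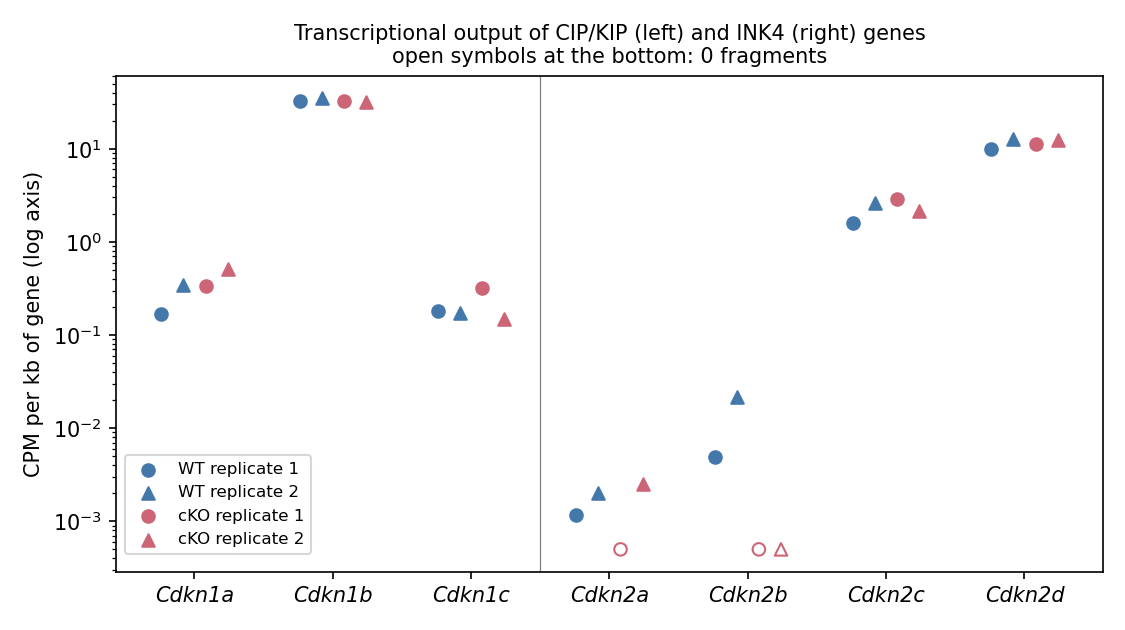
Output of the 7 CDK inhibitor genes in CPM per kb of gene (log axis), 1 symbol per library (WT blue, cKO red, circles replicate 1, triangles replicate 2). Open symbols at the bottom are libraries with 0 fragments and have no value on the axis. Cdkn1b, Cdkn2d and Cdkn2c form 3 separate levels, and the Cdkn1a and Cdkn1c ranges overlap.

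As shares of the summed output per kb of the 7 genes, Cdkn1b took 73.2% and 68.65% in WT and 68.73% and 67.9% in cKO. Cdkn2d took 22.4% and 25.1% in WT and 23.75% and 26.1% in cKO, and Cdkn2c from 3.59% to 6.14% over the libraries. Cdkn1a and Cdkn1c each stayed at or below 1.09%. The 3 CIP/KIP genes together held 71.8% ± 3.04 in WT and 69.7% ± 0.584 in cKO (SD, n = 2 each), with cKO replicate 1 (70.1%) above WT replicate 2 (69.7%), so the genotypes overlapped. The summed output was 44.9 and 50.7 CPM per kb in WT and 47.3 in both cKO libraries, which lay between the WT libraries. Not divided by length, the mean share of Cdkn1b was 77.5% and that of Cdkn2d 14.5%, because Cdkn2d is the shorter gene.

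**Figure D2:**
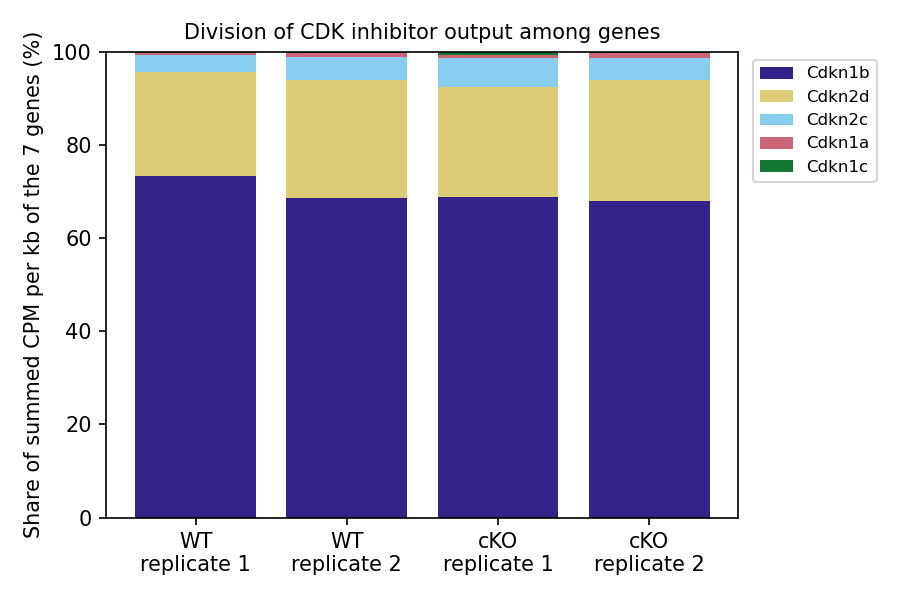
Share of each gene in the summed CPM per kb of the 7 CDK inhibitor genes (%), 1 bar per library. Cdkn1b fills 67.9% to 73.2% and Cdkn2d 22.4% to 26.1% of each bar, and Cdkn2a and Cdkn2b are too small to be drawn.

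Between the genotypes, no CDK inhibitor gene was called. Of the 7 genes, 4 had a mean of at least 1 CPM and were tested, and 0 of the 4 passed DESeq2 (adjusted p under 0.05 with a fold change of at least 1.2), against 3.71% of the 11625 genes (2.14% higher and 1.57% lower in cKO). None was called by edgeR either, against 0.499% of the genes. At an unadjusted p under 0.05 the count was again 0 of 4 with either tool, where 13.5% of all genes passed in DESeq2 and 15.6% in edgeR. In bulk cells, fewer cells of a type and less RNA per cell cannot be told apart, and with 2 libraries a gene these tests have wide intervals, which are given below.

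Among the CIP/KIP genes, Cdkn1b (chr6:134920401-134925525, plus strand) counted 7183 and 8684 fragments in WT and 6404 and 6536.5 in cKO, or 168.5 and 178.4 CPM against 166.6 and 164.4 CPM. Each cKO library lay below either WT library, by a small margin: the mean was 173.4 ± 6.96 CPM in WT and 165.5 ± 1.59 CPM in cKO (SD, n = 2). It was the 1 tested gene of the 4 whose genotypes did not overlap, against 48.9% of all genes, of which 24.0% had both cKO libraries below and 24.9% above. The log2 fold change was -0.07 (SE 0.08, adjusted p = 0.803 in DESeq2), and the 95% interval of the fold change ran from 0.853 to 1.06.

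Cdkn1a (chr17:29090979-29100722, plus strand) counted 70 and 164 fragments in WT and 125 and 200 in cKO, or 1.64 and 3.37 CPM against 3.25 and 5.03 CPM. WT replicate 1 was the lowest and cKO replicate 2 the highest, while WT replicate 2 and cKO replicate 1 were nearly level, so the genotypes overlapped. The log2 fold change was 0.72 (SE 0.42), the largest among the 4 tested genes in size, with a DESeq2 adjusted p of 0.460 and an edgeR adjusted p of 0.454. The 95% interval of the fold change, from 0.934 to 2.90, included 1. The value turned on single libraries: it was 0.29 without WT replicate 1, 0.37 without cKO replicate 2, 1.006 without cKO replicate 1 and 1.34 without WT replicate 2. Counting error was small beside this, with exact Poisson 95% intervals of 1.28 to 2.075 CPM in WT replicate 1 and 2.87 to 3.925 CPM in WT replicate 2, intervals that cover counting error only.

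Cdkn1c (chr7:143458339-143461050, minus strand) counted 21 and 23 fragments in WT and 33 and 16 in cKO. The cKO libraries lay on either side of the WT libraries, which were alike. Its log2 fold change of 0.38 had an SE of 0.84, DESeq2 gave no adjusted p, the edgeR adjusted p was 0.803, and without cKO replicate 1 the sign turned (-0.26). The 95% interval of the fold change ran from 0.416 to 4.08.

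Among the INK4 genes, Cdkn2d (chr9:21288464-21291209, minus strand) counted 1179 and 1704 fragments in WT and 1186 and 1348 in cKO, or 27.7 and 35.0 CPM against 30.9 and 33.9 CPM. Both cKO libraries lay between the WT libraries. The log2 fold change was 0.04 (SE 0.15, adjusted p = 0.950 in DESeq2), with a 95% interval of the fold change from 0.843 to 1.26.

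Cdkn2c (chr4:109660876-109666756, minus strand) counted 404 and 745 fragments in WT and 657 and 508 in cKO, or 9.48 and 15.3 CPM against 17.1 and 12.8 CPM. The highest library was cKO replicate 1 and the lowest WT replicate 1, and the genotypes overlapped. The log2 fold change was 0.26 (SE 0.24, adjusted p = 0.722 in DESeq2), with a 95% interval of the fold change from 0.869 to 1.66. It was -0.05 when WT replicate 1 was left out and 0.66 when WT replicate 2 was, so the direction rested on which WT library was kept.

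Cdkn2a (chr4:89274473-89294619, minus strand) counted 1 and 2 fragments in WT and 0 and 2 in cKO. Cdkn2b (chr4:89306289-89311032, minus strand) counted 1 and 5 in WT and 0 in both cKO libraries. For 0 fragments the exact Poisson 95% interval reached up to 0.0960 CPM in cKO replicate 1 and 0.0928 CPM in cKO replicate 2. The level of 3 fragments was 0.0781 CPM and 0.0755 CPM in these libraries. The Cdkn2b value of WT replicate 2 was 0.103 CPM, with an interval from 0.0333 to 0.240 CPM. Both genes were thus at or close to the floor in every library, and no fold change is given for them.

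**Figure D3:**
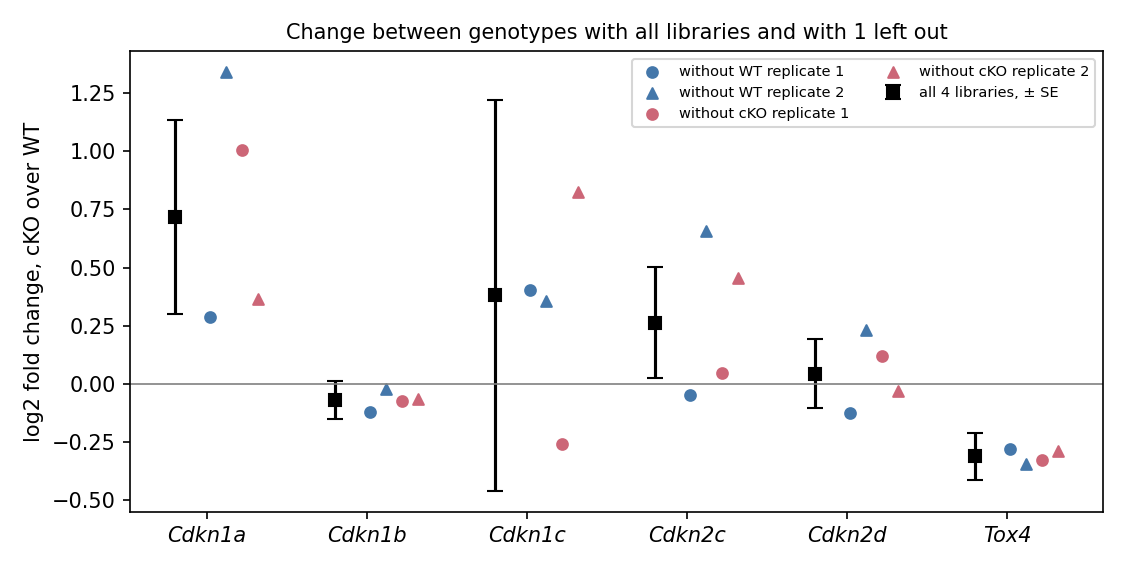
Log2 fold change of cKO over WT from DESeq2 for the CDK inhibitor genes with 16 or more fragments in each library and for Tox4. Black squares with bars are all 4 libraries ± SE, and coloured symbols leave out 1 library each (WT blue, cKO red, circles replicate 1, triangles replicate 2). Cdkn1a stays above 0 between 0.29 and 1.34, Cdkn1b stays between -0.12 and -0.02, and Cdkn1c, Cdkn2c and Cdkn2d cross 0.

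The WT libraries differed from each other in the 4 tested inhibitor genes by more than the means of the genotypes did. After scaling by DESeq2 size factors, WT replicate 2 exceeded WT replicate 1 by 2.07 times for Cdkn1a, 1.63 times for Cdkn2c, 1.27 times for Cdkn2d and 1.07 times for Cdkn1b. Among genes whose mean count was within 2-fold of theirs, the WT difference was smaller in 98.0% of 1949 genes for Cdkn1a, 96.7% of 3237 for Cdkn2c, 91.5% of 3691 for Cdkn2d and 61.4% of 2159 for Cdkn1b. The first 3 thus lay among the more variable genes of their abundance in WT. Between the cKO libraries the larger exceeded the smaller by 1.56 times for Cdkn1a, 1.33 times for Cdkn2c, 1.11 times for Cdkn2d and 1.006 times for Cdkn1b. Of 21 measured proliferation genes, from a list of known ones that the study used for its single cells, all 21 were higher in WT replicate 2 than in WT replicate 1 after the same scaling (Zwint by so little that its CPM, 51.7 and 51.6, had the other order), with a median log2 difference of 0.59 against 0.01 over all genes. Mki67, a marker of dividing cells, was lowest in WT replicate 1 and highest in cKO replicate 1, at 242 CPM, with 184 CPM in WT replicate 2 and 170 CPM in cKO replicate 2. The part of cell division in the spread of the inhibitor genes was not tested.

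The genes nearest in pattern over the 4 libraries, among those with a mean of at least 10 CPM, were found by the distance between centred log2 CPM values. For Cdkn1a the nearest was Asap2, at 25.3 and 43.7 CPM in WT and 43.2 and 54.3 CPM in cKO, at a distance of 0.213, and 0 of 8153 genes came within 0.1. For Cdkn2c it was Mex3b at 0.067, 1 of 5 genes within 0.1. For Cdkn2d it was Gas8 at 0.011, 1 of 51, and for Cdkn1b Ndufb5 at 0.011, 1 of 899. Many of the compared genes thus lay near Cdkn1b and none within 0.1 of Cdkn1a. The mean of Cdkn1a was 3.32 CPM, so genes of its own level were not compared. A fixed distance also admits fewer genes the more a gene varies, so these counts do not set its pattern apart.

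Next to the inhibitor genes lie several noncoding genes, and one at the Cdkn2a and Cdkn2b locus was higher in both cKO libraries without passing the test. Gm12610 (chr4:89295180-89518621, plus strand) starts 561 bp beyond the upstream start of Cdkn2a, runs away from it, and spans Cdkn2b on the opposite strand. It counted 24 and 32 fragments in WT and 83 and 79 in cKO, or 0.563 and 0.657 CPM against 2.16 and 1.99 CPM. The genotypes did not overlap, and the log2 fold change was 1.76 (SE 0.54, 95% interval of the fold change 1.62 to 7.08). DESeq2 filtered it out before adjustment, the adjusted p was 0.0589 with that filter off and 0.120 in edgeR, so it was not called. Without any 1 library the log2 fold change stayed between 1.65 and 1.88. Over its 223442 bp this was at most 0.0097 CPM per kb, and the counts do not show where in that span the fragments lay. Mtap, the neighbour on the other side of Cdkn2a, had 41.4 and 40.7 CPM in WT and 45.3 and 42.7 CPM in cKO (log2 fold change 0.10, SE 0.11, adjusted p = 0.803 in DESeq2).

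Trp53cor1, the gene of lincRNA-p21, a noncoding RNA induced by p53 and transcribed away from Cdkn1a, lies 11853 bp from it and counted 1 and 15 fragments in WT and 22 and 15 in cKO. Like Cdkn1a, it was lowest in WT replicate 1, at counts too low for an adjusted p in DESeq2 (edgeR adjusted p = 0.526). Lockd, a noncoding gene that starts 3567 bp beyond the end of Cdkn1b, had 23.8 and 35.9 CPM in WT and 37.9 and 25.4 CPM in cKO. Its libraries differed widely within both genotypes, unlike those of Cdkn1b (log2 fold change 0.08, SE 0.41, adjusted p = 0.971 in DESeq2). Kri1, which starts 495 bp beyond the end of Cdkn2d on the same strand, had 37.7 and 39.2 CPM in WT and 31.3 and 31.1 CPM in cKO. It was lower in each cKO library than in either WT library (log2 fold change -0.30, SE 0.12), and the DESeq2 adjusted p was 0.165, whereas Cdkn2d overlapped between the genotypes. Faf1, next to Cdkn2c on the other strand, differed little (log2 fold change 0.01, SE 0.08, adjusted p = 0.989 in DESeq2). Of the other neighbours, 2810454H06Rik was not called (log2 fold change -0.16, SE 0.30, adjusted p = 0.887 in DESeq2), and Rab44, Kcnq1, Slc22a18, Dmrta1, Ap1m2 and 4930522H14Rik had a mean below 1 CPM and could not be called.

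**Figure D4:**
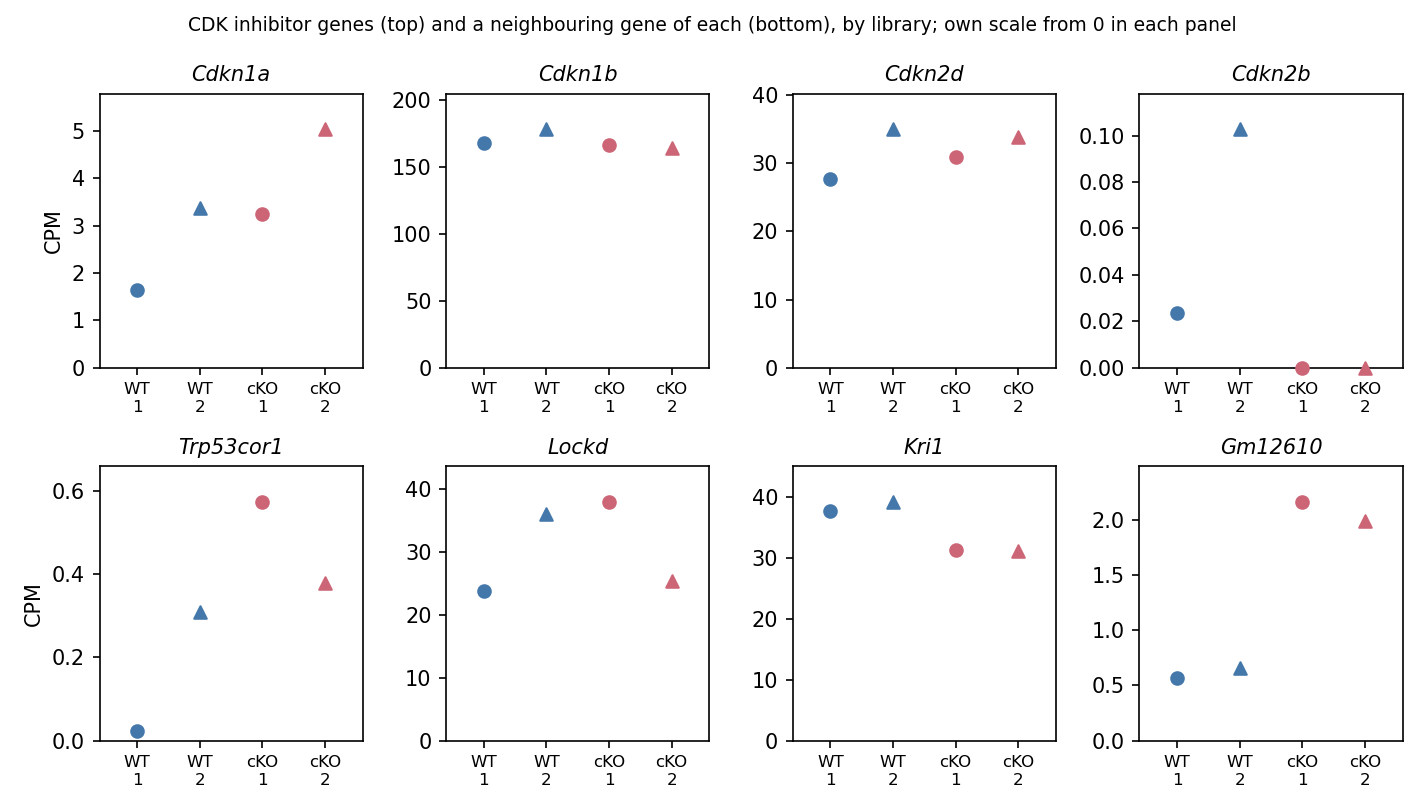
CPM by library of 4 CDK inhibitor genes (top) and of a neighbouring gene of each (bottom), each panel with its own linear axis from 0 (WT blue, cKO red, circles replicate 1, triangles replicate 2). Gm12610 is at 0.563 and 0.657 CPM in WT and 2.16 and 1.99 CPM in cKO while Cdkn2b is at or near 0, and Kri1 is lower in both cKO libraries while Cdkn2d overlaps.

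Set against their targets, the INK4 genes summed to 1.87 and 2.38 times the output per kb of Cdk4 and Cdk6 in WT and to 2.06 and 1.97 times in cKO. The cKO ratios lay between the WT ratios (log2 change -0.07, exact two-sided permutation p = 1.0), and without division by length the change had the other sign (0.09). The CIP/KIP genes summed to 8.35 and 7.33 times the output per kb of Cdk2 in WT and to 6.09 and 6.895 times in cKO. Both cKO ratios lay below both WT ratios (log2 change -0.27, exact two-sided permutation p = 0.333, the smallest that 2 against 2 libraries can give). Cdk2 itself had 28.3 and 34.3 CPM in WT and 38.8 and 33.8 CPM in cKO (log2 fold change 0.21, SE 0.14, adjusted p = 0.567 in DESeq2).

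Around the inhibitors in the pathway, few genes were called by DESeq2 and none by edgeR. Over all genes DESeq2 called 2.14% higher and 1.57% lower, which is the background for the counts below. Of 9 measured kinases and cyclins, 0 were called higher and 0 lower, and the median log2 fold change was 0.23 against 0.0009 over all genes. The list's 2 genes with the highest output per kb were Ccnd3, the D cyclin of thymocytes (log2 fold change -0.01), and Cdk2. Of 13 RB and E2F genes, 1 was called higher and 0 lower, with a median of 0.23. The called gene was E2f3, an activating E2F, at 109 and 136 CPM in WT and 185 and 173 CPM in cKO (log2 fold change 0.55, SE 0.11, adjusted p = 5e-05 in DESeq2 and 0.108 in edgeR). Its genotypes did not overlap, and without cKO replicate 1 the DESeq2 adjusted p was 0.0972. E2f4 (-0.01) and E2f2 (0.45), the genes of the list with the highest output per kb, were not called. When WT replicate 2 was left out, DESeq2 called 320 genes higher and 126 lower in all, against 249 and 182 with every library, and with them 4 of the kinases and cyclins and 5 of the RB and E2F genes, and with cKO replicate 1 left out it called 0 of the latter.

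Of 12 genes for turnover of the inhibitor proteins, 1 was called higher and 0 lower, with a median log2 fold change of 0.09. This was Dtl, which recruits the p21 protein to the CRL4 ubiquitin ligase, at 33.0 and 44.9 CPM in WT and 58.2 and 61.1 CPM in cKO. The cKO libraries were both above the WT libraries (log2 fold change 0.61, SE 0.14, adjusted p = 0.00132 in DESeq2 and 0.151 in edgeR). The call was lost without WT replicate 1, cKO replicate 1 or cKO replicate 2. Skp2, which directs the p27 protein to the SCF ubiquitin ligase, had a log2 fold change of 0.27 (SE 0.13, adjusted p = 0.295 in DESeq2). Pcna (0.17) and Skp1a (-0.20), with the highest output per kb, were not called.

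Of 23 genes for regulators of inhibitor transcription, 3 were called higher and 0 lower, with a median log2 fold change of 0.06. The called genes were Myc, Ezh2 and Bcl6, each known as a repressor of 1 or more of the inhibitor genes. Myc had 6.63 and 9.51 CPM in WT and 14.8 and 13.6 CPM in cKO (log2 fold change 0.81, SE 0.22, adjusted p = 0.0104 in DESeq2). Ezh2, the H3K27 methyltransferase of Polycomb repressive complex 2, had 143 and 153 CPM in WT and 193 and 188 CPM in cKO (log2 fold change 0.36, SE 0.08, adjusted p = 9.83e-04 in DESeq2). Bcl6 had 144 and 176 CPM in WT and 208 and 194 CPM in cKO (log2 fold change 0.33, SE 0.10, adjusted p = 0.0388 in DESeq2). In all 3 each cKO library exceeded either WT library, the edgeR adjusted p was 0.150, 0.0932 and 0.243, and each call was lost without WT replicate 1, cKO replicate 1 or cKO replicate 2. The call of Bcl6 was also lost with filtering off (adjusted p = 0.0703 in DESeq2). Tcf12, of the same list, was likewise higher in each cKO library than in either WT library (log2 fold change 0.23, SE 0.07). Its adjusted p was 0.016 in DESeq2 and 0.153 in edgeR, but its fold change of 1.17 was under the limit of 1.2. Id3 (0.21) and Trp53, with the highest output per kb, were not called. Trp53, the gene of p53, had 115 CPM in both WT libraries and 97.4 and 100.2 CPM in cKO (log2 fold change -0.22, SE 0.09, adjusted p = 0.159 in DESeq2).

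Cdkn1a is a classical p53 target, and of 15 other measured p53 targets 0 were called higher and 1 lower, with a median log2 fold change of -0.01. The called gene was Btg2, an antiproliferative gene, at 368 and 436 CPM in WT and 335 and 313 CPM in cKO (log2 fold change -0.31, SE 0.09, adjusted p = 0.02 in DESeq2 and 0.211 in edgeR), and the call was lost without WT replicate 2, cKO replicate 1 or cKO replicate 2. Mdm2, the ubiquitin ligase of p53, had a log2 fold change of 0.03 (SE 0.09, adjusted p = 0.956 in DESeq2), and Trp53inp1 one of 0.01 (SE 0.08, adjusted p = 0.980 in DESeq2). Of 7 genes for other proteins that inhibit CDKs or bind the inhibitors, Hexim1 (-0.23) and Cdkn2aip (0.10) among them, 0 were called. Of the 21 proliferation genes 1 was called higher, Mybl2 (log2 fold change 0.52, SE 0.16, adjusted p = 0.0375 in DESeq2 and 0.260 in edgeR), with a median of 0.29, and the call was lost without WT replicate 1, cKO replicate 1 or cKO replicate 2, or with filtering off (adjusted p = 0.0679 in DESeq2). Pcna and Hmgb2 (log2 fold change 0.08), with the highest output per kb, were not called. Without WT replicate 2, where 320 genes were called higher and 126 lower in all, 10 of the 21 were called. Leaving out another library gave 0 of the 21, with 113 higher and 71 lower in all without WT replicate 1, 78 and 48 without cKO replicate 1, and 61 and 28 without cKO replicate 2. The 4 tested inhibitor genes had a median of 0.15, which was -0.08 when WT replicate 1 was left out and 0.45 when WT replicate 2 was.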

How the data were processed

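TTchem-seq of DP thymocytes was analysed in 2 WT and 2 cKO libraries, grouped by their titles. Per the study's methods and the submitters' processing notes, the authors filtered reads with fastp 0.13.1, aligned them with STAR 2.7.9a to GRCm38 (mm10) and counted genes, and the notes also name featureCounts 1.6.1. The deposited values are expected counts of fragments per gene: 8.61% were fractional, and 1 of the 28 values of the inhibitor genes. The deposited length equalled the span of the transcripts in all 24926 genes on 1 chromosome, so that length includes introns, whereas the STAR gene counts that the methods name are taken over exons. The methods take the count matrix from the STAR output, and whether the deposited table is that matrix is not stated. The labels describe poly A capture, whereas the study's methods describe rRNA depletion and strand-specific libraries. How the DP cells were purified for this assay is not given in the sources used here. Yeast spike-in RNA was added and not used for scaling, here or by the authors.

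Expected counts were rounded and tested with the DESeq2 1.42.0 Wald test (R 4.3.3) over all genes, the study's method, without covariates: Benjamini-Hochberg adjusted p under 0.05, fold change of at least 1.2 and mean CPM of at least 1. CPM and CPM per kb were computed here from the unrounded deposited counts. Alternatives were edgeR 4.0.16, limma 3.58.1 (voom), other scaling factors, filters, a replicate block and leaving out each library. Levels, shares and figures used Python 3.11.15 with matplotlib 3.10.9, scipy 1.17.1, numpy 2.4.6 and pandas 2.3.3. The scripts were tested on simulated data.

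Named genes are the 7 inhibitor genes, Tox4, overlapping and nearest genes, the nearest gene in pattern, called genes of the pathway lists and the 2 genes of each pathway list with the highest CPM per kb. Those named beyond this (the marker genes, Mki67, Zwint, Skp2, Tcf12 and Mdm2) were chosen after their values were seen. The members and lists were chosen with earlier results of these data known. The study describes littermate mice and does not tie a library to a mouse, so p-values measure the spread between these libraries. Fragments are not independent molecules.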

Additional observations from a re-analysis of the deposited data

How the results depend on the processing

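The number of CDK inhibitor genes called was 0 under every alternative run, and the adjusted p of Cdkn1a ranged from 0.214 to 0.998 over the alternatives in DESeq2, edgeR and limma, that of Cdkn1b from 0.651 to 0.9995, that of Cdkn2c from 0.279 to 0.9995 and that of Cdkn2d from 0.822 to 0.9995. No other tool, scaling factor or filter turned the sign of a log2 fold change of Cdkn1a, Cdkn1b, Cdkn1c, Cdkn2c or Cdkn2d. Leaving out 1 library, which assumes that the library left alone in its genotype varies like the other group, gave log2 fold changes of 0.29 to 1.34 for Cdkn1a, -0.12 to -0.02 for Cdkn1b, -0.26 to 0.82 for Cdkn1c, -0.047 to 0.66 for Cdkn2c and -0.12 to 0.23 for Cdkn2d. Single reversed values were -0.26 for Cdkn1c without cKO replicate 1, -0.047 for Cdkn2c and -0.12 for Cdkn2d without WT replicate 1, and -0.03 for Cdkn2d without cKO replicate 2. The median over the 4 tested genes lay between -0.083, when WT replicate 1 was left out, and 0.45, when WT replicate 2 was, and the cause was not tested.

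The Tox4 call was lost with edgeR (-0.31), limma voom (-0.31), total count factors (-0.31, adjusted p = 0.0511 in DESeq2), filtering off (-0.31) and each library left out (-0.34 to -0.28). Replicate numbers are shared by the genotypes, and the deviations of same-numbered libraries correlated at 0.0042 over 11625 genes. With 2 libraries per genotype this value cannot show whether same-numbered libraries were paired. With the replicate block, Tox4 was at -0.31 in DESeq2 and -0.31 in edgeR without a call, no inhibitor gene was called, the DESeq2 calls of Rag1 (adjusted p = 0.257), Myc (0.0889), Ezh2 (0.0535), Bcl6 (0.1997), Btg2 (0.179) and Mybl2 (0.154) were lost, and DESeq2 called 121 genes higher and 72 lower against 249 and 182, while edgeR called 19 and 9 against 48 and 10 without the block.

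Without division by length, mean shares were 77.5% for Cdkn1b, 14.5% for Cdkn2d, 6.21% for Cdkn2c and 1.51% for Cdkn1a, against 69.6%, 24.4%, 4.865% and 0.714% per kb. Per kb of exons, an alternative chosen after seeing the data, mean levels were 70.5, 25.1, 6.06 and 1.63 CPM for Cdkn1b, Cdkn2d, Cdkn2c and Cdkn1a, against 33.1, 11.6, 2.32 and 0.341 per kb of the deposited length. The INK4 ratio changed by 0.093 in place of -0.07, and between -0.24 and 0.11 with 1 library left out. By edgeR 0 genes of any pathway list were called. With 1 library left out, the calls ranged from 0 to 4 for kinases and cyclins, 0 to 5 for RB and E2F genes, 0 to 1 for turnover genes, 0 to 3 for regulators, 0 to 1 for other p53 targets and 0 to 10 for proliferation genes. Counts were low for Cdkn1c, at 16 to 33 fragments, and for Cdkn2a and Cdkn2b, at 0 to 5.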
